A study of Arabidopsis thaliana with 2 samples.

Results

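The genes described here are 47 TIR-NBS-LRR immune receptor genes (TNLs) of Arabidopsis thaliana, picked by identifier as full-length TIR-type receptors, including the known clusters and pairs, and read in 2 RNA-seq libraries in which 23147 genes were listed. One library came from a pbl19 null mutant that carried the transgene pPBL19-PBL19C3A-GFP-HA (C3A), a tagged PBL19 with cysteine 3 replaced by alanine, under the PBL19 promoter as its name gives it. The other came from wild type plants (WT), for which no transgene is named. Both were untreated rosettes of the Col-0 accession at 28 days, with 1 library per genotype, so no difference has a replicate check and none was tested. The number of plants per library and the number of transgenic lines are not given in the sources used here. The null allele, the amino acid change, the tags and the amount of PBL19 all differ between the genotypes and cannot be told apart. PBL19 (AT5G47070), a receptor-like cytoplasmic kinase, stood at 466 FPKM in C3A and 6.68 FPKM in WT. FPKM is the number of fragments of a gene per unit of its length and per unit of sequencing depth.

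TNLs are intracellular receptors with a TIR domain, a nucleotide-binding domain and leucine-rich repeats, and they recognise pathogen effectors or the proteins those effectors modify. Activated TIR domains act as enzymes whose small-molecule products are bound by EDS1 together with PAD4 or SAG101, which then engage helper receptors of the ADR1 and NRG1 families. Overactive or overexpressed TNLs cause autoimmunity with dwarfing, and their transcripts and proteins are held down by several negative regulators. Many TNL genes lie in tandem clusters of near-identical copies.

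The reference annotation (RefSeq, TAIR10.1) describes 44 of the 47 genes as TIR-NBS-LRR class. RLM3 (AT4G16990) is described as TIR-NBS without leucine-rich repeats, AT5G38350 as NBS-LRR without a TIR domain, and AT5G17890 as DA1-related protein 4 (DAR4, also called CHS3), whose reference note lists TIR, NB-LRR and LIM domains. The longest annotated products run from 725 to 1744 amino acids with a median of 1147, and the shortest is that of AT5G45210. Chromosome 5 holds 24 of the genes, chromosome 4 holds 12, chromosome 1 holds 7 and chromosome 3 holds 4.

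Sequence likeness limits how far single values can be read. Fractional counts, which can arise when reads that match several genes are divided between them, occurred in 19 of the 47 genes. In these, a median of 34.8% of the 31-base stretches of the transcripts was also present in another gene (range 0.862% to 72.5%), against a median of 0.278% and a maximum of 2.12% in the 28 genes with whole counts. The tandem genes AT5G41740 and AT5G41750, which had the largest log2 ratios of FPKM + 1 of the set, are shown for this reason. They share an identical run of 189 coding bases, which occupies chr5:16691848-16692036 in AT5G41740 and chr5:16697116-16697304 in AT5G41750, plus strand, in exons of both.
shared coding run of AT5G41740 and AT5G41750: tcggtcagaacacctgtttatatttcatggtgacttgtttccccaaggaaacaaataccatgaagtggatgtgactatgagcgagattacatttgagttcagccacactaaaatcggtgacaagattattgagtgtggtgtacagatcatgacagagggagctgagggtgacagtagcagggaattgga
The 250 bases before the annotated starts of this pair, printed because both genes are past 2-fold, hold a common run of 14 bases (capitals). It begins 124 bases before the start of AT5G41740 and 14 bases before that of AT5G41750. Of 27443 windows of this length before nuclear protein-coding genes, 3 hold this run on either strand, the other being that of AT5G41550, a member under 1 FPKM in both libraries. The windows lie at chr5:16688376-16688625 and chr5:16693582-16693831, plus strand.
AT5G41740: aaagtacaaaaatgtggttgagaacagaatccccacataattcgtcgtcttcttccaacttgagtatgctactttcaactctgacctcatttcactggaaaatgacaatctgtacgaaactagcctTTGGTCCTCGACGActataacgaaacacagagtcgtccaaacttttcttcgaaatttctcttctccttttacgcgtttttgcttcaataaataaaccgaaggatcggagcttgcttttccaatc
AT5G41750: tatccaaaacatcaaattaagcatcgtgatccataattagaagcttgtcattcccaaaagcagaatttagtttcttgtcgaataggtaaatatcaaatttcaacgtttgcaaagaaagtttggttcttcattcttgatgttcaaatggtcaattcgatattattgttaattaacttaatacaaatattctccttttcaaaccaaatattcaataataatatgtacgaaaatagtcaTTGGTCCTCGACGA

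As a set the receptors were moderately higher in C3A. Their summed level was 567 FPKM in C3A and 366 FPKM in WT, a ratio of 1.55 (95% counting interval 1.52 to 1.58). They held 0.23% of C3A counts and 0.15% of WT counts. Of the 47 genes, 46 were listed in C3A and 47 in WT, and 40 reached 1 FPKM in at least 1 library. Among these 40, the log2 ratio of FPKM + 1, C3A over WT, had a median of 0.56 and ran from -0.70 to 2.82, and 38 lay above 0. Over all 19527 genes at this level the median was 0.14, and 61.7% lay above 0. Rescaling the libraries to a median ratio of 1 removed this shift, and then 36 of the 40 receptor genes lay above 0 around a median of 0.42. At least 2-fold higher on this scale were 7 of 40 genes, beside 7.89% of all genes, and none was at least 2-fold lower, beside 2.85% of all genes. Of all genes past 2-fold, 73.5% were higher in C3A in the values as deposited, and 60.5% once rescaled. At the smaller size of 1.5-fold, 18 genes were higher, beside 18.6% of all genes, and 1 was lower, beside 8.9% of all genes. Of the 40, 31 were above WT by less than 2-fold on this scale. AT1G56540, AT5G38340 and AT5G38350 reached 1 FPKM in C3A only and AT5G45210 in WT only, so their direction was fixed by that threshold. Over all 47 genes without the threshold the median was 0.55, with 42 above 0 and 4 below.

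**Figure D1:**
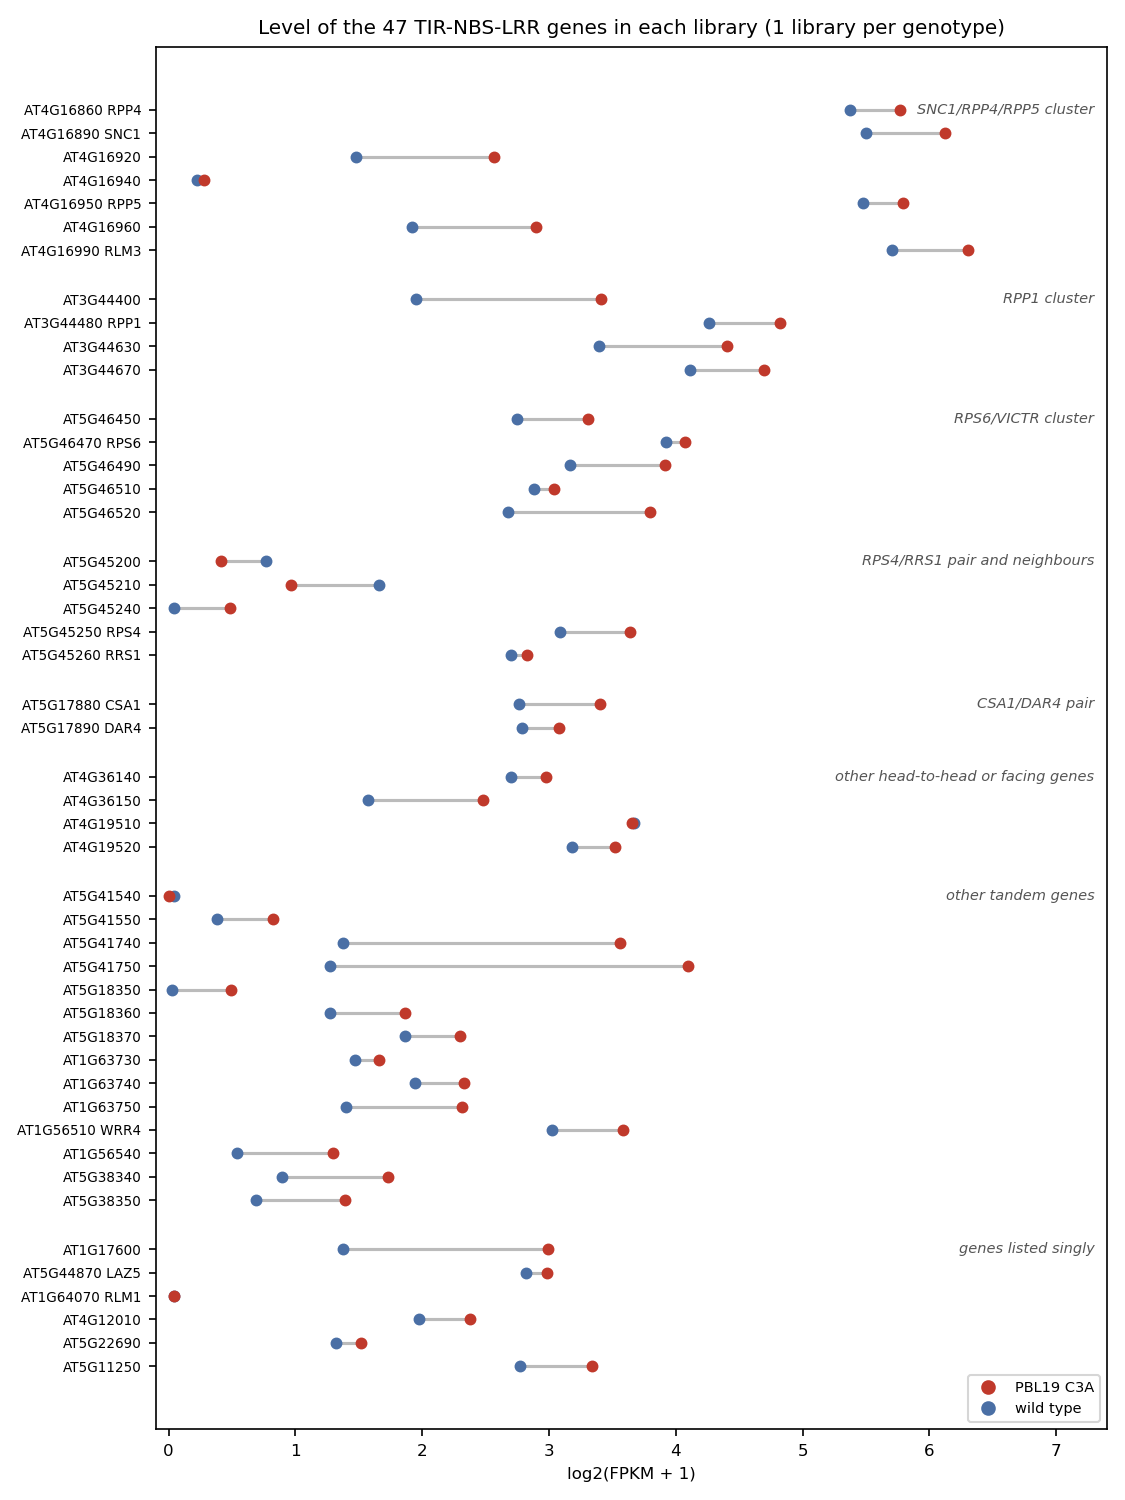
Level of each of the 47 genes on the log2(FPKM + 1) axis, with PBL19 C3A in red and wild type in blue, 1 library each, grouped by chromosomal cluster. The red point lies to the right of the blue point for 42 genes, and the widest gaps are those of AT5G41750, AT5G41740 and AT1G17600.

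The libraries held 12001808 estimated counts for C3A and 11937705 for WT. Rosette markers RBCS1A, CAB3 and RCA were abundant in both, with a summed level of 12200 FPKM in C3A and 20300 FPKM in WT. Root markers IRT1, EIR1, EXPA7 and SHV2 summed to 13.8 FPKM in C3A and 38.6 FPKM in WT, with all 4 lower in C3A, as were all 3 rosette markers. The flower marker AP3 was listed in neither library, and AG had 2 counts in C3A and was unlisted in WT. The seed marker CRA1 stood at 0.05 FPKM in C3A and 0.20 FPKM in WT. The part of tissue makeup in the receptor ratios was not tested, and fewer cells of a type and less RNA per cell cannot be told apart in bulk RNA.

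For all 7 genes past 2-fold on the FPKM + 1 scale, the assignment of reads is or may be uncertain. Of these, 6 have fractional counts. AT1G17600 has whole counts but overlaps CHS1 (AT1G17610), a TIR-NBS gene on the opposite strand, over 3193 of its 5179 bases. That overlap matters only if counting ignored strand, which is not known. The 22 genes at this level with whole counts had a median of 0.40 and included 1 past 2-fold on this scale, AT1G17600, beside 7.41% of all whole-count genes. By the plain FPKM ratio, 13 of the 40 were at least 2-fold higher, beside 10.5% of all genes listed in both libraries. These 13 add AT4G16960, AT4G36150, AT1G56540, AT1G63750, AT5G38340 and AT5G38350, of which AT4G36150, AT5G38340 and AT5G38350 have whole counts. AT1G56540, AT5G38340 and AT5G38350 reached 1 FPKM in C3A only, so their direction was fixed by that threshold. After rescaling to a median ratio of 1, AT3G44630, AT4G16920 and VICTR (AT5G46520) stood below 2-fold, at log2 ratios of 0.86, 0.97 and 0.98. Where the paralogs that share reads are both in the set, their counts were also summed, since a sum does not depend on how reads are divided within the pair. Such a sum still depends on reads shared with genes outside it.

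Among genes with at least 1 FPKM, AT5G41750 had the largest ratio, with 16.1 FPKM in C3A and 1.42 FPKM in WT from 855.70 and 74.89 estimated counts, 11.3-fold higher (8.95 to 14.6). Its upstream neighbour AT5G41740 had 10.8 FPKM in C3A and 1.6 FPKM in WT, 6.74-fold higher (5.24 to 8.77). Both were among the weakly expressed members in WT and among the 15 with a mean of 5 to 10 FPKM over the libraries. They share 801 stretches of 31 bases, 16.3% of those of AT5G41750. Together they had 1339 counts in C3A and 146 in WT, 9.12-fold higher after scaling to library totals (7.68 to 10.9). AT5G41550 and AT5G41540, at lower coordinates on the same chromosome, were both under 1 FPKM. AT5G41550 had 0.77 FPKM in C3A and 0.30 FPKM in WT, and AT5G41540 was unlisted in C3A and had 1 count in WT.

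AT1G17600 had 6.94 FPKM in C3A and 1.6 FPKM in WT, 4.34-fold higher (3.45 to 5.49). CHS1, whose mutants are chilling sensitive, had 9.38 FPKM in C3A and 1.81 FPKM in WT. Whether counting used strand is not given in the sources used here. Without it, reads of the overlap cannot be told apart, and these may not be separate results.

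In the SNC1/RPP4/RPP5 cluster on chromosome 4, which spans 77.1 kb, the 4 abundant genes stayed below 1.6-fold and AT4G16920 exceeded 2-fold on the FPKM + 1 scale. SNC1 (AT4G16890), whose gain-of-function mutant has constitutive defence, had 68.8 FPKM in C3A and 44.2 FPKM in WT, 1.56-fold higher (1.48 to 1.64). RPP4 (AT4G16860), a receptor for resistance to downy mildew, had 53.4 FPKM in C3A and 40.6 FPKM in WT, 1.32-fold higher (1.24 to 1.4). RPP5 (AT4G16950), named for resistance to the same pathogen, had 54.5 FPKM in C3A and 43.5 FPKM in WT, 1.25-fold higher (1.19 to 1.32). RLM3, needed for resistance to the fungus Leptosphaeria maculans, was the most abundant gene of the set, with 78.2 FPKM in C3A and 51.1 FPKM in WT, 1.53-fold higher (1.44 to 1.63). These 4 genes and RPP1 held 49.7% of the summed FPKM of the set in C3A and 54% in WT.

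AT4G16920, a TIR-NBS-LRR gene with no symbol in the reference, had 4.93 FPKM in C3A and 1.78 FPKM in WT, 2.77-fold higher (2.19 to 3.52). AT4G16960 had 6.44 FPKM in C3A and 2.79 FPKM in WT, and AT4G16940 had 0.21 FPKM in C3A and 0.17 FPKM in WT. The last pair share an identical coding run of 1090 bases, and their summed counts were 2.25-fold higher after scaling to library totals (1.79 to 2.83). The deposited length of AT4G16940 was 5030.68 bases in C3A and 4039.19 bases in WT, so its FPKM values are not on one length. The 6 genes other than RLM3, which share reads among themselves, together had 9836 counts in C3A and 6962 in WT, 1.41-fold higher after scaling to library totals (1.36 to 1.45). Of the 7 other genes of the span at this level, 2 were above 0 and 5 below. AT4G16957 had 10.4 FPKM in C3A and 5.44 FPKM in WT, and AT4G16955 had 124 FPKM in C3A and 84.5 FPKM in WT. AT4G16955 lies inside RPP5 on the opposite strand, so reads of the overlap cannot be told apart if counting ignored strand. AT4G16900, a TIR-NBS-LRR gene between SNC1 and AT4G16920, had 3.84 FPKM in C3A and 4.88 FPKM in WT. AT4G16857, beside RPP4 and outside the span, had 2.11 FPKM in C3A and 6.04 FPKM in WT. It is described as TIR-NBS-LRR class, but its longest product has 256 amino acids. AT4G16900 and AT4G16857 have fractional counts and are not in the sum of the 6 genes.

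In the RPP1 cluster on chromosome 3, all 4 genes were higher in C3A. AT3G44400 had 9.64 FPKM in C3A and 2.87 FPKM in WT, 3.36-fold higher (2.72 to 4.17). AT3G44630 had 20.2 FPKM in C3A and 9.53 FPKM in WT, 2.12-fold higher (1.90 to 2.36). Inside AT3G44630, on the opposite strand, lies AT3G44635, with 34.9 FPKM in C3A and 24.8 FPKM in WT. If counting ignored strand, these may not be separate values. RPP1 (AT3G44480), for downy mildew resistance, had 27.2 FPKM in C3A and 18.2 FPKM in WT, 1.5-fold higher (1.38 to 1.63), and AT3G44670 had 24.9 FPKM in C3A and 16.3 FPKM in WT, 1.53-fold higher (1.4 to 1.67). The weakest gene in WT thus had the largest ratio. The transcripts share 31.5% to 55.4% of their 31-base stretches with other genes, and the summed counts of the cluster were 4149 in C3A and 2387 in WT, 1.73-fold higher after scaling to library totals (1.64 to 1.82).

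The RPS6/VICTR cluster on chromosome 5 held both small and larger differences within 36.9 kb. VICTR (AT5G46520), needed for the root growth arrest caused by the small molecule DFPM, had 12.9 FPKM in C3A and 5.38 FPKM in WT, 2.40-fold higher (2.08 to 2.77). VICTL (AT5G46510), its tandem copy, had 7.23 FPKM in C3A and 6.36 FPKM in WT, 1.14-fold higher (0.990 to 1.31). The copies share an identical coding run of 825 bases, and 63.5% of the stretches of VICTR occur in VICTL. Their sum was 1094 counts in C3A and 661 in WT, 1.65-fold higher after scaling to library totals (1.49 to 1.82). How far the difference between the copies depends on the division of shared reads was not tested. VICTR was more abundant than VICTL in C3A and less abundant in WT, with VICTL over VICTR at 0.56 in C3A and 1.18 in WT.

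RPS6 (AT5G46470), a receptor for resistance to Pseudomonas syringae, had 15.8 FPKM in C3A and 14.2 FPKM in WT, 1.11-fold higher (1.02 to 1.22). Its log2 ratio of 0.15 was close to the all-gene median and became -0.01 after rescaling to a median ratio of 1. AT5G46450 had 8.92 FPKM in C3A and 5.71 FPKM in WT, and AT5G46490 had 14.1 FPKM in C3A and 7.95 FPKM in WT. AT5G46500, a short VICTR-related gene inside the span but outside the set, had 4.77 FPKM in C3A and 0.30 FPKM in WT.

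**Figure D2:**
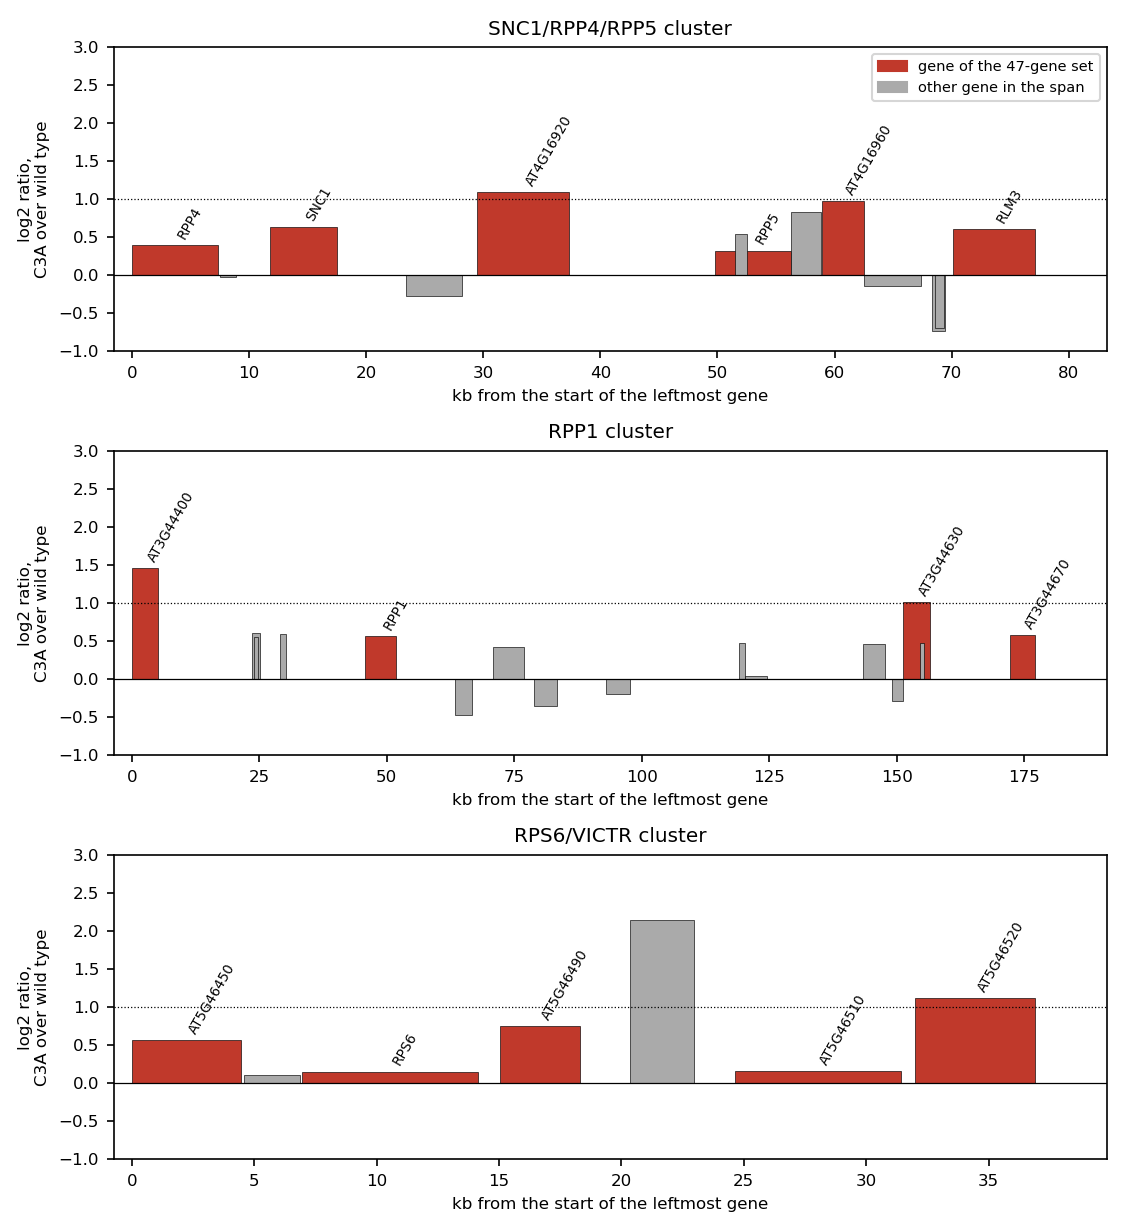
Log2 ratio of FPKM + 1, C3A over WT, of each gene with at least 1 FPKM in either library, drawn along its cluster in kb from the start of the leftmost gene (1 library per genotype). Red bars are genes of the 47-gene set, grey bars are other genes in the span, and the dotted line marks 2-fold. The red bars lie above 0 in all 3 clusters. The grey bars lie on both sides of 0 in the SNC1/RPP4/RPP5 and RPP1 clusters and above 0 in the RPS6/VICTR cluster, which has 2 of them.

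The receptors that act in pairs were next compared, since each pair is encoded head to head and works as one complex. RPS4 (AT5G45250) had 11.4 FPKM in C3A and 7.49 FPKM in WT, 1.52-fold higher (1.33 to 1.75). RRS1 (AT5G45260), its partner with a WRKY domain that serves as bait for bacterial effectors, had 6.10 FPKM in C3A and 5.50 FPKM in WT, 1.11-fold higher (0.951 to 1.29). RPS4 thus stood at 1.87 times RRS1 in C3A and 1.36 times in WT. RRS1 had a log2 ratio of 0.13, which became -0.01 after rescaling to a median ratio of 1. Both genes have whole counts. The annotated genes are separated by 27 bases at chr5:18326176-18326202, printed on the plus strand to show how little lies between their starts.
RPS4 to RRS1: tgagatttgagtggttgaatgtccaat

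CSA1 (AT5G17880) and DAR4 (AT5G17890) form the other known pair, with 3544 bases between them. CSA1 had 9.57 FPKM in C3A and 5.77 FPKM in WT, 1.66-fold higher (1.42 to 1.94). DAR4 had 7.43 FPKM in C3A and 5.90 FPKM in WT, 1.26-fold higher (1.1 to 1.44). In both pairs the partner with the extra integrated domain, RRS1 or DAR4, had the smaller ratio, and the counting intervals overlapped between DAR4 and CSA1 but not between RRS1 and RPS4.

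AT4G36140 and AT4G36150, whose annotated ends overlap by 35 bases head to head, also differed. AT4G36150 had 4.57 FPKM in C3A and 1.97 FPKM in WT, 2.32-fold higher (1.81 to 2.99), and AT4G36140 had 6.86 FPKM in C3A and 5.48 FPKM in WT, 1.25-fold higher (1.09 to 1.44). AT4G19510 had 11.6 FPKM in C3A and 11.7 FPKM in WT, the smallest difference among the abundant genes. Its facing neighbour AT4G19520 had 10.5 FPKM in C3A and 8.09 FPKM in WT, and AT4G19530, the next TIR-NBS-LRR gene beyond it and outside the set, had 6.97 FPKM in C3A and 22.4 FPKM in WT.

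Of the 4 genes below WT in any amount, AT4G19510 and AT5G41540 are given above and the other two lie near RPS4. AT5G45210 had 0.95 FPKM in C3A and 2.16 FPKM in WT from 26 and 59 counts, a ratio of 0.44 (0.266 to 0.709), and was the gene past 1.5-fold lower. AT5G45200 had 0.33 FPKM in C3A and 0.70 FPKM in WT from 17 and 36 counts. AT5G45240, between them and RPS4, had 0.40 FPKM in C3A and 0.03 FPKM in WT from 13 counts and 1 count. The counts of all 3 genes are small, and counting error is large at this level.

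The remaining genes are single genes or small tandem groups. WRR4 (AT1G56510), for white rust resistance, had 11.0 FPKM in C3A and 7.15 FPKM in WT, and its neighbour AT1G56540 had 1.45 FPKM in C3A and 0.45 FPKM in WT. LAZ5 (AT5G44870), which causes cell death when overexpressed, had 6.89 FPKM in C3A and 6.07 FPKM in WT, 1.14-fold higher (0.970 to 1.33). AT5G11250 had 9.11 FPKM in C3A and 5.84 FPKM in WT, and AT4G12010 had 4.2 FPKM in C3A and 2.92 FPKM in WT. AT5G22690 had 1.86 FPKM in C3A and 1.5 FPKM in WT. Of these 6 genes, AT1G56540 alone exceeded a plain ratio of 2, and it reached 1 FPKM in C3A only.

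The tandem genes on chromosome 1 gave AT1G63730 2.15 FPKM in C3A and 1.77 FPKM in WT, AT1G63740 4.03 FPKM in C3A and 2.85 FPKM in WT, and AT1G63750 3.96 FPKM in C3A and 1.64 FPKM in WT. In the tandem on chromosome 5, AT5G18360 had 2.65 FPKM in C3A and 1.42 FPKM in WT, and AT5G18370 had 3.92 FPKM in C3A and 2.64 FPKM in WT. Their neighbour AT5G18350 had 0.41 FPKM in C3A and 0.02 FPKM in WT from 19 counts and 1 count, a ratio with an interval of 3.26 to 852. AT5G38340 had 2.32 FPKM in C3A and 0.86 FPKM in WT, and AT5G38350 had 1.62 FPKM in C3A and 0.61 FPKM in WT. RLM1 (AT1G64070), the blackleg resistance gene, had 1 count in each library.

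By level, the 10 genes with a mean of at least 10 FPKM over both libraries had a median log2 ratio of FPKM + 1 of 0.57, the 15 with 5 to 10 FPKM had 0.56, and the 14 with 1 to 5 FPKM had 0.65. All genes in the same bands had medians of 0.18, 0.12 and 0.09. The pseudocount shrinks the differences of low genes, and the plain FPKM ratios had medians of 1.51, 1.54 and 2.09 in these bands of the set, against 1.14, 1.1 and 1.08 over all genes. On the plain scale the 14 genes with 1 to 5 FPKM thus had the largest median. At least 2-fold higher were 7 of the 14, beside 713 of the 5073 genes with a ratio in this band. AT5G38340 and AT5G38350, which are among the 7, reached 1 FPKM in C3A only, so their direction was fixed by that threshold. AT5G45210, also in this band, reached it in WT only. The highest log2 ratio of FPKM + 1, 2.82, lay in the middle band, and the most abundant band reached 1.01.

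The rest of the TIR-NBS-LRR class by reference description, another 47 genes, was read in the same way. Of these, 32 reached 1 FPKM, with a median log2 ratio of 0.38, a range of -1.55 to 1.52, 8 genes at least 2-fold higher and 2 at least 2-fold lower. Of the 32, 5 reached 1 FPKM in C3A only. The 2 lower genes, beside 2.85% of all genes, were AT4G19530 and AT4G16857, given above. This class was picked by description and was not limited to full-length genes. Above 0 were 38 of 40 genes of the set and 24 of 32 of the remaining class, and at least 2-fold higher were 7 of 40 and 8 of 32, beside 61.7% and 7.89% of all genes. Of the 8, AT3G25510, AT4G11170 and AT4G11340 reached 1 FPKM in C3A only, which fixed their direction. The difference between the sets was not tested. Protein-coding genes directly beside the members but outside the set numbered 44 at this level, with a median of 0.06. At least 2-fold higher were 3 of the 44, beside 7.89% of all genes, and 2 were at least 2-fold lower, beside 2.85%.

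**Figure D3:**
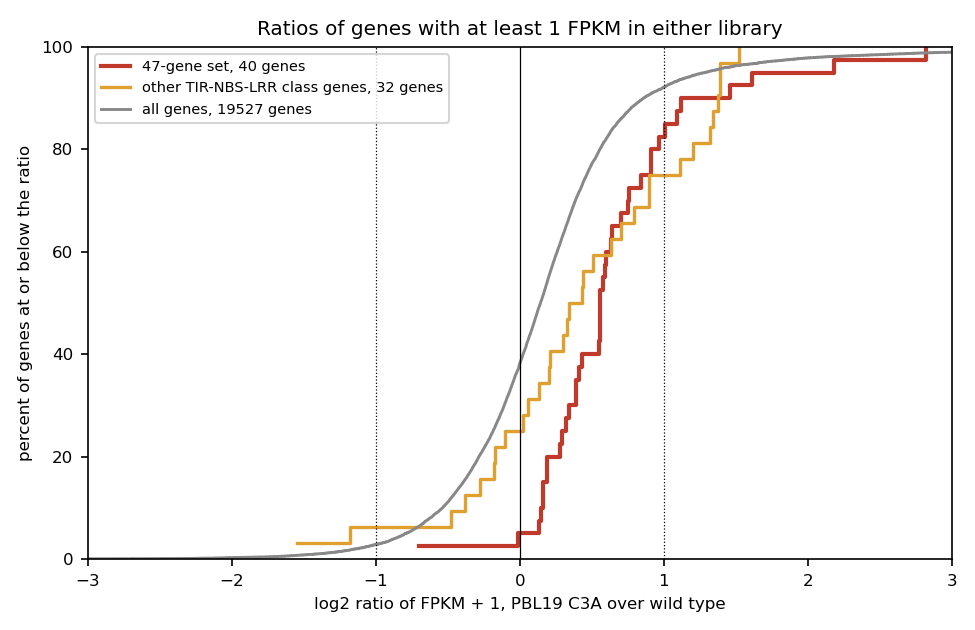
Cumulative percent of genes by log2 ratio of FPKM + 1, C3A over WT, for genes with at least 1 FPKM in either library. The 47-gene set is in red (40 genes), the other TIR-NBS-LRR class genes in orange (32) and all genes in grey (19527), with ratios beyond 3 off the axis and dotted lines at 2-fold. The red curve crosses 50% at 0.56 and the grey curve at 0.14.

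WRKY transcription factors, many of which act in defence, bind the W-box, and the 250 bases before each annotated start were searched for TTGACC and TTGACT on both strands. The strings differ in the last letter, so no position matches both. At least 1 match was present in 19 of 47 windows (40.4%), beside 28.4% of the 27443 windows of nuclear protein-coding genes, and at least 2 matches in 6 windows (12.8%), beside 6.18%. Among the 7 genes past 2-fold on the FPKM + 1 scale, 1 had a match (14.3%), against 18 of the other 40 (45%). That gene is AT5G41750, where TTGACC lies 104 bases before the start on the opposite strand. A set of 7 is too small to tell these shares apart. Of the genes past 2-fold by the plain FPKM ratio only, AT1G56540, AT1G63750, AT5G38340 and AT5G38350 have a match. AT4G16960 and AT4G36150, also past it by that ratio only, have none. In 20 of the 47 windows another annotated gene reaches in, among them those of AT4G16920, AT1G17600, AT3G44400 and AT3G44630. Of the most abundant genes, SNC1 has a match, and RLM3, RPP4, RPP5 and RPP1 have none. The window of SNC1, at chr4:9505973-9506222 on the minus strand, is shown for its match 12 bases before the start (TTGACT, capitals).
SNC1 promoter: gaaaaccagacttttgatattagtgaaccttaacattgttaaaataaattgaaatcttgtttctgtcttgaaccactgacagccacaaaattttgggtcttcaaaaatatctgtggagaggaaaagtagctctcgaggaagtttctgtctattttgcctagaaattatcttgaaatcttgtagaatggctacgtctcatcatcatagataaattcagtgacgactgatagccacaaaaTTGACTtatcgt

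Genes that work with or on nucleotide-binding leucine-rich repeat (NLR) receptors, the wider class that holds the TNLs, were compared as 4 lists. The helper and EDS1 list had a median log2 ratio of 1.37. In it 7 of 9 genes were at least 2-fold higher, beside 7.89% of all genes, and none was lower, beside 2.85%. The 7 include NDR1, at 20.8 FPKM in C3A and 9.01 FPKM in WT, which is neither a partner of EDS1 nor an ADR1 or NRG1 helper. PAD4 had 111 FPKM in C3A and 9.85 FPKM in WT, and EDS1 had 62.1 FPKM in C3A and 9.51 FPKM in WT, and their log2 ratios were 3.36 and 2.58, beside 2.82 for AT5G41750, the largest of the receptors. SAG101, the other partner of EDS1, had 26.6 FPKM in C3A and 6.13 FPKM in WT, 4.33-fold higher (3.59 to 5.25). The helper receptor ADR1 had 13.1 FPKM in C3A and 3.67 FPKM in WT, 3.57-fold higher (2.93 to 4.37). ADR1-L1 had 74.6 FPKM in C3A and 28.8 FPKM in WT, and ADR1-L2 had 43.9 FPKM in C3A and 16.4 FPKM in WT. The CC-NBS-LRR genes AT5G66900 and AT5G66910, which have fractional counts, were at 9.48 and 11.7 FPKM in C3A and at 8.25 and 5.93 FPKM in WT. They are the NRG1 helpers of the list and its only genes below 2-fold, at log2 ratios of 0.18 and 0.87.

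Chaperones and turnover factors of NLR proteins differed among themselves, with 4 of 12 genes at least 2-fold higher, beside 7.89% of all genes, none lower, beside 2.85%, and a median of 0.57. The calcium-dependent copine BON1, a negative regulator of SNC1, had 32.1 FPKM in C3A and 5.82 FPKM in WT, and its partner BAP1 had 20.3 FPKM in C3A and 1.99 FPKM in WT. SGT1A, a co-chaperone, had 56.6 FPKM in C3A and 12.9 FPKM in WT, and the heat shock protein HSP90.1 had 8.01 FPKM in C3A and 1.89 FPKM in WT. The F-box protein CPR1, which targets SNC1 for degradation, had 20.6 FPKM in C3A and 22.8 FPKM in WT, a ratio of 0.906 (0.796 to 1.03). SRFR1, which restrains several TNLs, had 18.9 FPKM in C3A and 14.9 FPKM in WT.

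The list of snc1 modifiers, genes tied to the autoimmunity of that mutant, had a median of 0.18. None of the 9 was past 2-fold, beside 7.89% of all genes higher and 2.85% lower. PRL1 had the largest ratio, with 43.5 FPKM in C3A and 30.7 FPKM in WT. The small RNA list, from a pathway that silences NLR transcripts, had a median of 0.11 and none of its 5 genes past 2-fold. Lists of 9 and 5 genes are too short to tell none past 2-fold from the shares of all genes. RDR6 had 8.77 FPKM in C3A and 8.07 FPKM in WT, and AGO1 had 66.0 FPKM in C3A and 49.1 FPKM in WT, 1.35-fold higher (1.27 to 1.42). The all-gene median was 0.14.

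**Figure D4:**
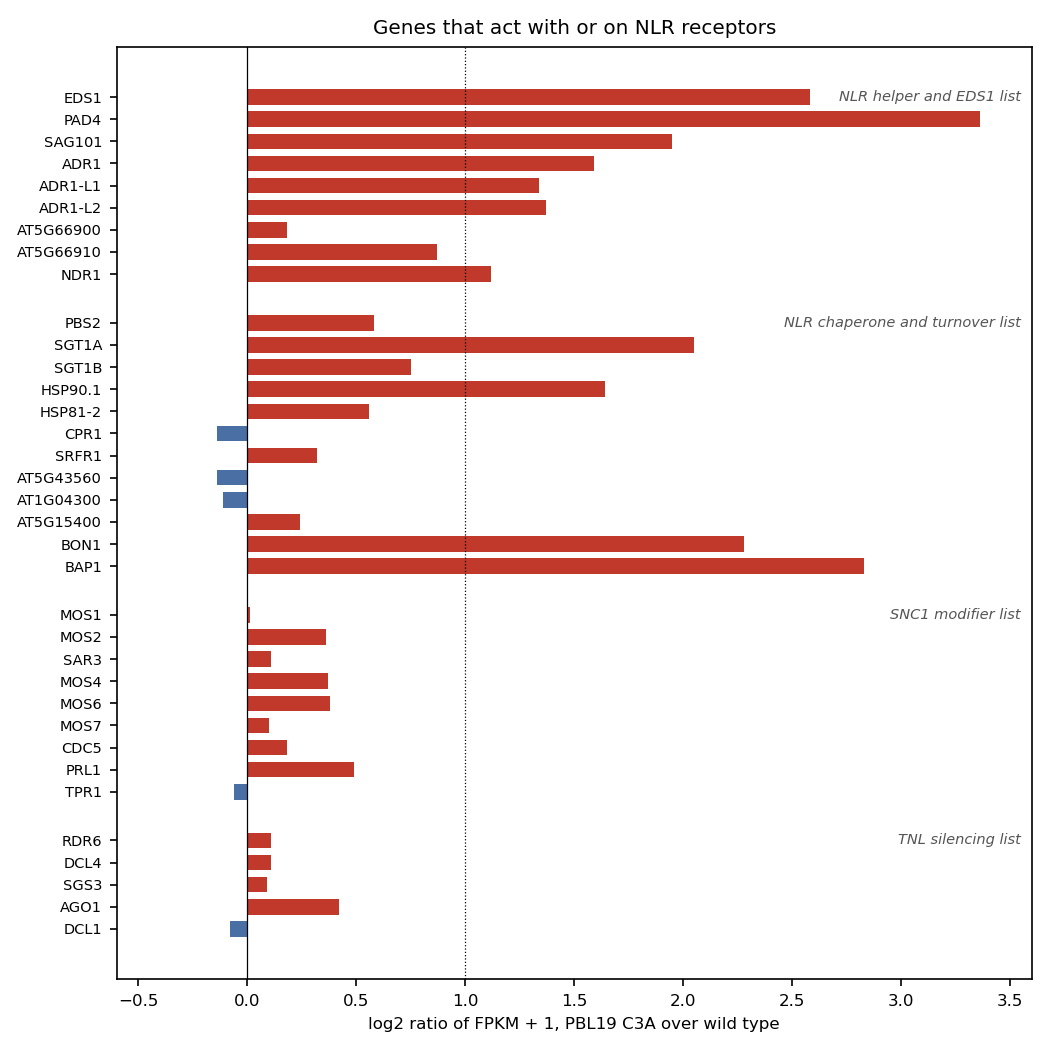
Log2 ratio of FPKM + 1, C3A over WT, for each gene of 4 lists that act with or on NLR receptors (1 library per genotype). The dotted line marks 2-fold. PAD4, BAP1 and EDS1 have the longest bars. No modifier of snc1 or small RNA gene reaches the line, which 7.89% of all genes do.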

How the data were processed

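Rosette RNA of 1 C3A and 1 WT sample was sequenced as 150 bp paired-end reads, per the labels' protocols. The submitters' processing notes name Trimmomatic 0.36, HISAT and TAIR10. They give no HISAT version, and no source used here gives the counting tool or its strand setting. For each gene above 0, the deposited tables hold its length, its estimated count and its FPKM, per the file headers. The deposited FPKM were not rescaled for the main values, and unlisted genes were set to 0. The ratio is log2 of FPKM + 1, C3A over WT, for genes with at least 1 FPKM in either library, and it understates differences of low genes. Single genes have the plain FPKM ratio with the exact conditional 95% interval of the rounded estimated counts, which covers counting error only.

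The members and lists were chosen with earlier results of these data known. Genes were described one by one where they were at least 2-fold different, at least 1.5-fold lower, among the 5 most abundant, or in a named pair or cluster, and at most 4 genes were taken from a list by size of ratio. Other members have their values in the text or the plot of levels. Further list genes, among them CPR1, SRFR1, the other ADR1 helpers and the pair AT5G66900 and AT5G66910, and genes outside the set inside or beside clusters were named after their values were seen. Names, coordinates and sequences come from RefSeq TAIR10.1, on which all 16 members with 1 transcript have the deposited length (tolerance 0.01 bases). Shared 31-base stretches were counted over annotated transcripts on the sense strand. Protein sequences were not used here. Steps used python 3.11.15, pandas 2.3.3, numpy 2.4.6, scipy 1.17.1, matplotlib 3.10.9, R 4.3.3 and edgeR 4.0.16 (TMM factors only). The 2-fold call and the counting interval were tested on simulated counts with counting error only. Reads shared between genes were not simulated. Alternatives covered the pseudocount, the filter, the scaling, the gene length and genes with uncertain counts.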

Additional observations from a re-analysis of the deposited data

How the results depend on the processing

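No paired analysis was possible because each genotype has 1 library. The count of receptor genes at least 2-fold higher, 7 of 40 beside 7.89% of all genes, was 13 of 40 beside 10.6% with a pseudocount of 0.1 FPKM, 4 of 40 beside 6.23% once the median ratio was set to 1, and 4 of 29 beside 8.66% without genes that overlap another gene. Without genes with fractional counts it was 1 of 22 beside 7.41%, too few to place against the all-gene share. By the plain FPKM ratio, 4 of these 22 were at least 2-fold higher, beside 1667 of 16808 whole-count genes. Of these 4, AT5G38340 and AT5G38350 reached 1 FPKM in C3A only. On the FPKM + 1 scale the count was 5 of 40 beside 6.22% with TMM-scaled counts, and 5 of 40 beside 6.51% after rescaling without the 100 most abundant genes. At a minimum of 5 FPKM it was 6 of 27 beside 8.17%. With no filter it was 7 of 47 beside 6.66%, and with mean gene lengths 7 of 40 beside 7.87%. The 40 include AT1G56540, AT5G38340 and AT5G38350, which reached 1 FPKM in C3A only. With the pseudocount of 0.1 FPKM, 1 receptor gene (AT5G45210) and 911 genes in all were at least 2-fold lower, against 0 and 557. Rescaling to a median ratio of 1 took AT3G44630, AT4G16920 and AT5G46520 under 2-fold, at log2 ratios of 0.86, 0.97 and 0.98, and turned RRS1 and RPS6 to -0.01 each. The summed level of the set, 1.55 times WT as deposited, was 1.38 times after that rescaling, 1.39 with TMM-scaled counts and 1.41 without the 100 most abundant genes. The median of the set ran from 0.40 (without fractional counts) to 0.61 (pseudocount of 0.1 FPKM) and stayed above the all-gene median under each alternative run. The 3 rescalings left all-gene medians of 0.00 to 0.03, against 0.14 in the deposited values. The spread between plants was not measured, and genes under 1 FPKM are limited by their few counts.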
